A study of Mus musculus with 20 samples.

Results

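The 61 genes described here, out of 19269 gene symbols counted, encode collagen chains, laminin chains and a small set of other extracellular matrix proteins. They were chosen by name: every collagen symbol of the form Col1a1, every laminin symbol of the form Lama1, Lamb1 or Lamc1, and Nid1, Nid2, Hspg2, Agrn, Sparc, Fbn1 and Fbn2. By role they comprised 8 basement membrane collagens, 11 laminins, 4 nidogens and heparan sulfate proteoglycans, 3 matricellular and microfibril genes, 11 fibrillar collagens, 8 fibril-associated collagens, 11 beaded-filament and other collagens and 4 transmembrane collagens. Col9a3, a type IX chain, was kept apart as a glial collagen.

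RNA was sequenced from preoptic punches of female mice, pooled from 3 to 4 animals per sample, by ribosome pull-down. In this assay an antibody against GFP recovers ribosomes with a GFP-tagged L10a subunit, giving an immunoprecipitate (IP) and the supernatant left after it. Young mice were taken at day 21 and adults at days 70 to 150, in diestrus. Counts were scaled to CPM, a common library size, with the trimmed-mean (TMM) method, and the 20 libraries held 27.7 to 50.5 M counts each. The 5 untagged pools, called negative, each gave an IP and a supernatant: young negative 1 and 2 were Wild Type, young negative 3 was Floxed L10a-GFP only, and adult negative 1 and 2 were GnRH CRE only. Age and genotype therefore changed together among them. A single adult pool of the cross GnRH CRE x Floxed L10a-GFP, in which the tag is driven in GnRH neurons, gave a GFP-positive IP and supernatant without a replicate. A further 4 supernatant pools of that cross, 2 young and 2 adult, came from an earlier series and were sequenced in a first and again in a second set; they are called prior pools, and the other 6 pools new. The new adult GFP-positive pool thus shared its cross with the prior pools, whereas the adult negative pools and all new young pools did not.

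Basement membranes are thin sheets in which a network of type IV collagen and a network of laminin are bridged by nidogens and by heparan sulfate proteoglycans. In brain they surround blood vessels and line the pial surface, and are made by endothelial cells, mural cells, astrocytes and meningeal fibroblasts. Fibrillar collagens form the tensile fibres of connective tissue and come mainly from fibroblasts, which in brain lie in the meninges and around larger vessels.

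The collagens among these genes share a repeat that laminins lack, in which glycine returns at every 3 amino acids, written by codons that begin with GG. Over the 43 collagens, the longest unbroken run of such codons, 3 apart, counted from 28 to 344, with a median of 60. Over the 11 laminins it counted 2 to 3. The sequences below, from GENCODE M21 transcripts on GRCm38 (the assembly also called mm10), show 50 codons each for the chains on which the results turn, with the GG codons in capitals. For the collagens they start where the longest run starts, and for Lamc1 at the start codon.
Col4a1: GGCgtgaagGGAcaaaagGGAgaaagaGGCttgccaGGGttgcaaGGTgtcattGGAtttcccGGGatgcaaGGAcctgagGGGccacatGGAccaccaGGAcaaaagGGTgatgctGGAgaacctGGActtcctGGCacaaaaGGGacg
Col4a2: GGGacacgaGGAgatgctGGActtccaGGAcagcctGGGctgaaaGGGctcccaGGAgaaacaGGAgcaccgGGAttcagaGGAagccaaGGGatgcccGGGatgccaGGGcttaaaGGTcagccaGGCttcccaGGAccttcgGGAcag
Col9a3: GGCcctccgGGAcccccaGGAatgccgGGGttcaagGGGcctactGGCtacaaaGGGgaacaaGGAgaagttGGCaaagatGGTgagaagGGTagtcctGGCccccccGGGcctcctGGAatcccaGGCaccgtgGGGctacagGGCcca
Col1a2: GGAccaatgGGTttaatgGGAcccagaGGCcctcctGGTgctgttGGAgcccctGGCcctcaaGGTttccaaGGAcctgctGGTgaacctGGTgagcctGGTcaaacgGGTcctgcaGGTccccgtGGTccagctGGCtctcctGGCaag
Lamc1: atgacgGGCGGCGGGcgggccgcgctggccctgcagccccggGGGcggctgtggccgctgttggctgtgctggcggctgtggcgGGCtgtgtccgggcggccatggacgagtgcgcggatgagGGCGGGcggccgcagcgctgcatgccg
In each collagen stretch 17 of the 50 codons were GG codons, 1 in every 3 without a break, whereas the Lamc1 stretch held 7 without a period. These stretches covered codons 43 to 92 of 1669 in Col4a1, 777 to 826 of 1707 in Col4a2, 177 to 226 of 680 in Col9a3, 97 to 146 of 1372 in Col1a2 and 1 to 50 of 1607 in Lamc1. The members were long transcripts, with a median of 6091 bases against 2821 over 18955 genes.

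Gnrh1, which marks the tagged neurons, read 1457 CPM in the pull-down from the GFP-positive pool, 7.85 to 33.5 CPM in the 5 negative IPs and 13.5 to 47.6 CPM in the supernatants. Neuron markers summed to 5367 to 6875 CPM in the 14 supernatants. The supernatant of pool young negative 3 had the highest summed fibroblast and meninges, mural cell and endothelial markers of the 14 supernatants. The IP of that pool did not lead the negative IPs in all of these sums. Calls between IP and supernatant that rest on pool young negative 3 are given with and without it.

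Expression of the matrix genes in the supernatant was low, and it was led by Sparc, which encodes a secreted glycoprotein that binds collagen. Averaged over the 14 supernatant libraries, 5 members reached 10 CPM or more, 30 lay between 1 and 10 CPM and 26 lay under 1 CPM. A floor of 3 counts corresponded to 0.0588 to 0.109 CPM, so the lowest members were near the limit of detection. Compared per kb of transcript, Sparc led with 65.0 CPM per kb and ranged from 46.5 to 105 over the libraries, with no overlap with any other member. Col9a2, a chain of the fibril-associated type IX collagen, followed at 7.64 CPM per kb (range 5.92 to 10.9), also without overlap with the members ranked lower. Col9a3, its partner chain, came next at 2.85 CPM per kb (range 1.29 to 5.15). From Col9a3 down, neighbours in the order overlapped in their ranges among the 35 members with a mean of at least 1 CPM.

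Among basement membrane genes, Agrn was the most abundant per kb. Agrn encodes agrin, a heparan sulfate proteoglycan known for its part in neuromuscular synapses and vascular basement membranes, and it averaged 2.42 CPM per kb in the supernatants. The type IV chains of the common heterotrimer averaged 1.08 CPM per kb for Col4a2 and 0.814 for Col4a1. The ratio of Col4a1 to Col4a2 per kb lay between 0.50 and 1.04, with a median of 0.698 over 14 libraries. These genes lie head to head on chromosome 8 (Col4a1 from 11198423 to 11312826 on the minus strand, Col4a2 from 11312805 to 11449287 on the plus strand, GRCm38). Their annotated exons share 22 bases, of 7464 in Col4a1, and the reads over those bases were not examined. The other type IV chains, Col4a3 to Col4a6, which belong to the rarer heterotrimers of kidney and other tissues, averaged 0.00987 to 0.116 CPM per kb.

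The laminins, each assembled from an alpha, a beta and a gamma chain, were led per kb by Lamb3, a beta chain best known from epithelial basement membranes of skin. Lamb3 averaged 1.38 CPM per kb (range 0.871 to 1.90), ahead of Lamc1, the common gamma chain, at 0.781 (0.213 to 1.28). Lamb1 followed at 0.744, Lamb2 at 0.656, Lama2 at 0.383 and Lama4 at 0.318 CPM per kb. Lama3, an alpha chain known as a partner of Lamb3, was lower at 0.139 CPM per kb. No other gene of the count table shared exon bases with Lamb3 in the annotation.

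The fibrillar chains Col1a2 and Col3a1 spread more widely over the libraries than Col4a2. Col1a2, the alpha-2 chain of type I collagen, ranged from 2.74 to 30.3 CPM over the 14 supernatants, and Col3a1, which forms type III collagen, from 0.839 to 29.0 CPM. Col4a2 ranged from 4.23 to 11.3 CPM. Type I collagen holds more alpha-1 than alpha-2 chains, but Col1a2 stood above Col1a1 per kb in 14 of 14 supernatants, with a ratio of 1.44 to 3.56. Col25a1, a transmembrane collagen made by neurons, was steadier, from 6.94 to 15.9 CPM.

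**Figure D1:**
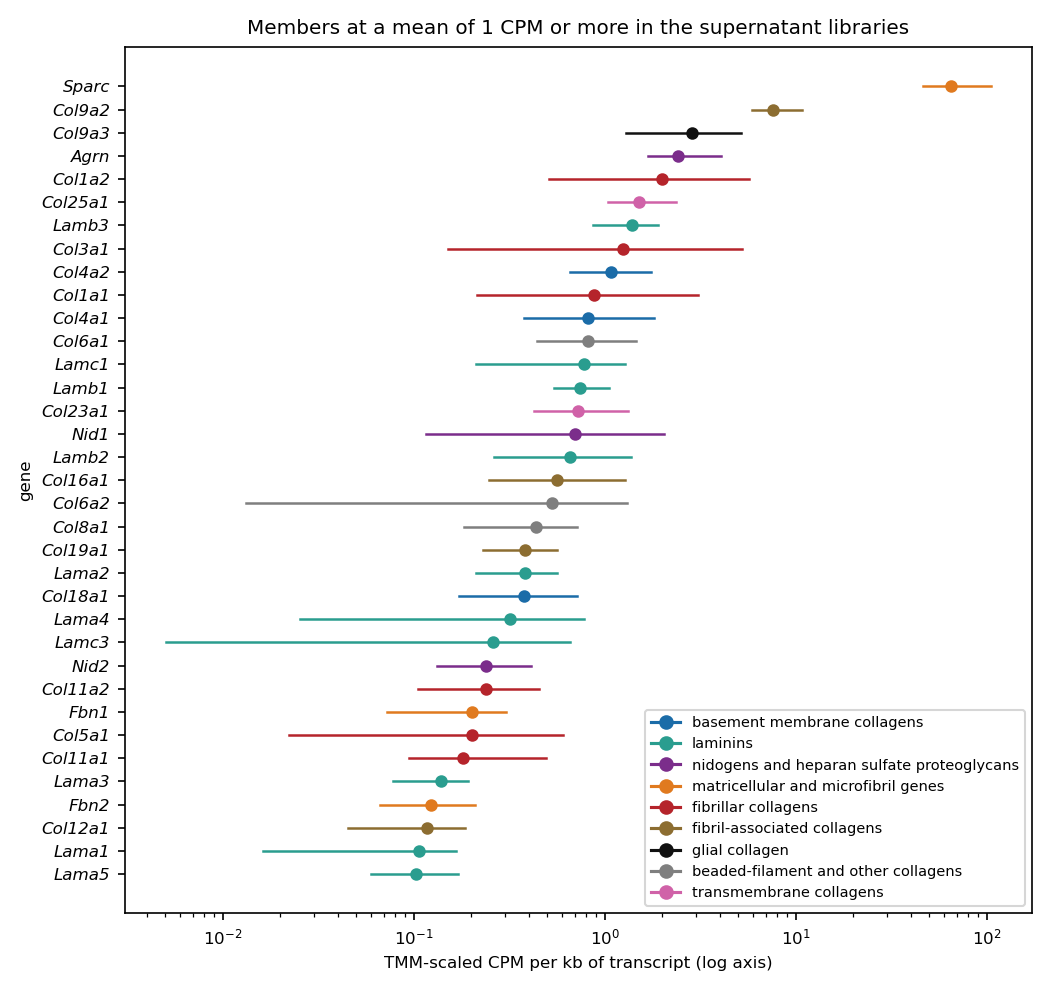
TMM-scaled CPM per kb of transcript (log axis) for the 35 members with a mean of at least 1 CPM over the 14 supernatant libraries; points are means, lines run from the lowest to the highest library and colours give the role. Sparc stands alone at 65.0 CPM per kb and Col9a2 at 7.64, and Col1a2, Col3a1 and Col1a1 have wide ranges.

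The highest Col1a2 and Col3a1 values in each fraction came from pool young negative 3. Not all fibrillar chains followed. Among the IPs, Col1a1 was highest in adult negative 1, at 21.1 CPM against 17.5 CPM in young negative 3. Pool young negative 3 had the highest of the 10 second-set supernatants for 26 of 53 members tested, against 11.8% of all genes. Its IP was the highest of the 5 negative IPs for 19 of 57 members, against 20% of all genes. Col3a1 read 4.33, 6.89 and 29.0 CPM in the supernatants of young negative 1, 2 and 3, and 5.90 and 8.99 CPM in those of adult negative 1 and 2. In the IPs of the same pools it read 8.37, 20.5 and 77.4, and 4.45 and 12.1 CPM. Both fractions of young negative 3 thus lay above all others. Col4a1 was also highest there among the supernatants, with 4.58, 4.13 and 12 CPM in the young pools and 3.06 and 3.40 CPM in the adult ones.

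Summed markers of vessel and meningeal cells were highest in the same supernatant. The 12 fibroblast and meninges markers summed to 648 CPM in young negative 3 and to 150 to 550 CPM in the other 5 new supernatants. Single markers did not all follow. Islr read 15.8 CPM there and 26.5 CPM in adult negative 2, and Mgp 20.8 and 24.2 CPM. Dcn read 41.9 and 39.0 CPM in the same libraries, and Lum 7.20 and 7.26 CPM. The 10 mural cell markers summed to 290 CPM in young negative 3 against 43.3 to 103 CPM. Acta2 held 175 CPM of that sum, and Rgs5 read 13.4 CPM against 4.86 to 10.6 CPM. The 12 endothelial markers summed to 57.8 CPM in young negative 3 against 19.7 to 41.5 CPM. Col1a1, Col1a2 and Col3a1 together summed to 77.5 CPM in that supernatant and to 14.6 to 35.8 CPM in the other new ones. Among the negative IPs they summed to 168 CPM in young negative 3 and to 42.6 to 74.2 CPM in the rest. The fibroblast markers in the IP of young negative 3 read 485 CPM, close to 491 CPM in adult negative 2. Its mural markers were the highest of the negative IPs, at 197 CPM. Its endothelial markers read 34.8 CPM, where the negative IPs ran from 32.1 to 93.5 CPM. The part of those cells in the collagen values was not tested. In bulk RNA, more cells of a type and more RNA per cell cannot be told apart. This pool is also the only pool of its genotype.

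**Figure D2:**
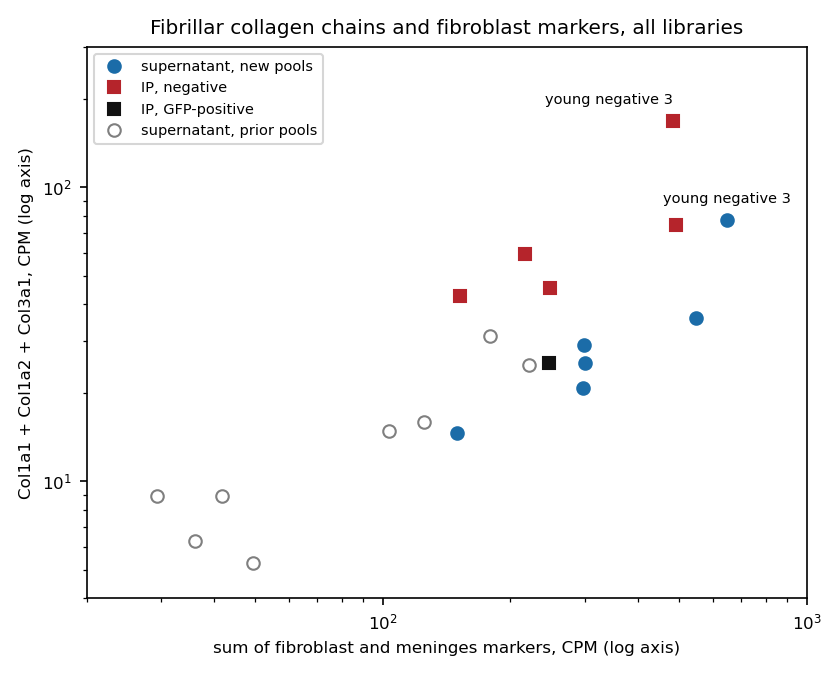
Sum of Col1a1, Col1a2 and Col3a1 against the sum of 12 fibroblast and meninges markers in the 20 libraries, both in CPM on log axes; symbols give fraction and pool origin, and young negative 3 is labelled in each fraction. The collagen sum runs from 5.29 CPM in a prior adult supernatant to 168 CPM in the IP of young negative 3.

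The first comparison set the negative IP against its supernatant, that is, what a pull-down without tagged ribosomes retains. Of 57 members tested over both ages, 6 were higher in the IP and 3 lower at an adjusted p under 0.05 (edgeR quasi-likelihood test, Benjamini-Hochberg over 16361 genes), where 15.8% of all genes were called higher and 16.2% lower. The calls among the members were therefore no more frequent than over all genes. The higher ones were Agrn, Lamc1, Col4a1, Col4a2, Col25a1 and Col11a1, and the lower ones Lamb3, Nid2 and Col6a5. At an unadjusted p under 0.05 there were 17 of 57 members and 6661 of 16361 genes, a smaller share of the members than of all genes. The median log2 difference was 0.78 over the members and -0.03 over all genes. With each IP paired to its supernatant the medians were 0.01 and -0.17, and with limma voom 0.03 and -0.19.

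Both chains of the common type IV collagen rose. Col4a1 read 4.58, 4.13 and 12 CPM in the young negative supernatants and 10.9, 21.6 and 33.7 CPM in the IPs of the same pools. In the adult negative pools it read 3.06 and 3.40 CPM in the supernatant and 20.8 and 18.4 CPM in the IP. Each IP lay above its own supernatant, and the overlap of the groups came from the supernatant of young negative 3 alone. Col4a1 was 4.31-fold higher in the IP (log2 2.11, SE 0.40, adjusted p = 0.00267 by edgeR).

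Col4a2 read 4.65, 5.20 and 11.3 CPM in the young supernatants against 21.2, 20.6 and 33.8 CPM in the IPs. The adult supernatants read 5.76 and 5.56 CPM and the adult IPs 12.2 and 17.7 CPM. Every negative IP exceeded every negative supernatant. The difference was 3.00-fold (log2 1.58, SE 0.31, adjusted p = 0.00315 by edgeR). Of the 8 basement membrane collagens tested, 2 were higher and none lower by edgeR; Col18a1, the source of endostatin, was at log2 1.60 (SE 0.64, adjusted p = 0.0839) and was called by DESeq2.

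Laminins went both ways. Lamc1 read 4.40, 5.28 and 9.76 CPM in the young supernatants and 31.1, 28.7 and 20.1 CPM in their IPs, with 7.05 and 8.71 CPM in the adult supernatants and 19.4 and 27.2 CPM in the adult IPs. All IPs lay above all supernatants. The rise was 3.41-fold (log2 1.77, SE 0.28, adjusted p = 0.000891 by edgeR). Lamb3 went down, from 7.20, 8.63 and 4.24 CPM to 4.31, 1.99 and 3.47 CPM in the young pools. In the adult pools it went from 7.28 and 5.98 CPM to 0 and 0.669 CPM. Its IP was below its supernatant in 5 of 5 pools, and the fit gave log2 -2.70 (SE 0.82, adjusted p = 0.0283 by edgeR). Without pool young negative 3, Lamb3 had log2 -2.84 and an adjusted p of 0.056 (edgeR), and no longer passed. The remaining 9 laminins had no call over both ages; Lamb1, the usual partner of Lamc1, was at log2 0.92 (SE 0.41, adjusted p = 0.119).

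Among the linkers, Agrn was called higher. Neither of the nidogens, which join laminin to type IV collagen, was called higher. Agrn read 18.5, 13.1 and 15.2 CPM in the young supernatants and 32.1, 25.4 and 40.8 CPM in the young IPs. The adult pools read 12.6 and 13.4 CPM in the supernatant and 29.7 and 34.9 CPM in the IP. The groups did not overlap, and the rise was 2.24-fold (log2 1.16, SE 0.18, adjusted p = 0.000888 by edgeR). Nid1 was at log2 0.70 (SE 0.72, adjusted p = 0.524). Nid2 read 1.64, 1.37 and 2.01 CPM in the young supernatants but 0.510, 14 and 8.95 CPM in the young IPs. It had 0 counts in both adult IPs, against 63 and 35 counts in their supernatants. Over both ages it was called lower (adjusted p = 0.0495 by edgeR; 0.0743 with each IP paired to its supernatant), although the IPs of young negative 2 and 3 lay above every supernatant. Hspg2, which encodes perlecan, was at log2 -0.62 (SE 0.99, adjusted p = 0.699).

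Sparc, the most abundant member, was level between the fractions, with 195 ± 31.3 CPM in the negative supernatant and 201 ± 77.1 CPM in the negative IP (SD, n = 5 each). Its log2 difference was 0.03 (SE 0.19, adjusted p = 0.928 by edgeR). Col9a2 was at log2 -0.14 (SE 0.16) and Col9a3 at 0.51 (SE 0.55), neither past the threshold.

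Of the 9 fibrillar collagens tested, 1 was called. Col11a1, a minor chain of cartilage-type fibrils, read 0.763, 2.14 and 1.19 CPM in the young supernatants and 4.84, 7.33 and 3.77 CPM in the young IPs, and 0.948 and 0.759 CPM against 2.17 and 1.96 CPM in the adult pools. Its log2 difference was 1.58 (SE 0.54, adjusted p = 0.0479 by edgeR). With each IP paired to its supernatant, Col11a1 no longer passed (adjusted p = 0.104), while Col1a1 (log2 1.09, SE 0.35, adjusted p = 0.0463) and Col1a2 (log2 1.16, SE 0.26, adjusted p = 0.0104) were called higher, and Lamc3 lower (adjusted p = 0.0431). Col25a1 read 10.1, 8.47 and 7.75 CPM in the young supernatants and 24.7, 5.81 and 17.3 CPM in their IPs, so that young negative 2 went the other way; the adult pools went from 7.48 and 11.2 to 27.0 and 41.2 CPM. Over both ages Col25a1 was 2.51-fold higher (log2 1.33, SE 0.36, adjusted p = 0.0166 by edgeR). Col6a5, a chain of beaded filaments, had 5 counts in adult negative IP 2 and 0 in the other 4 IPs, against 2 to 20 counts in the supernatants, and was called lower (adjusted p = 0.0439 by edgeR; 0.192 when paired); no fold is given because its young supernatants held 2 or 3 counts.

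**Figure D3:**
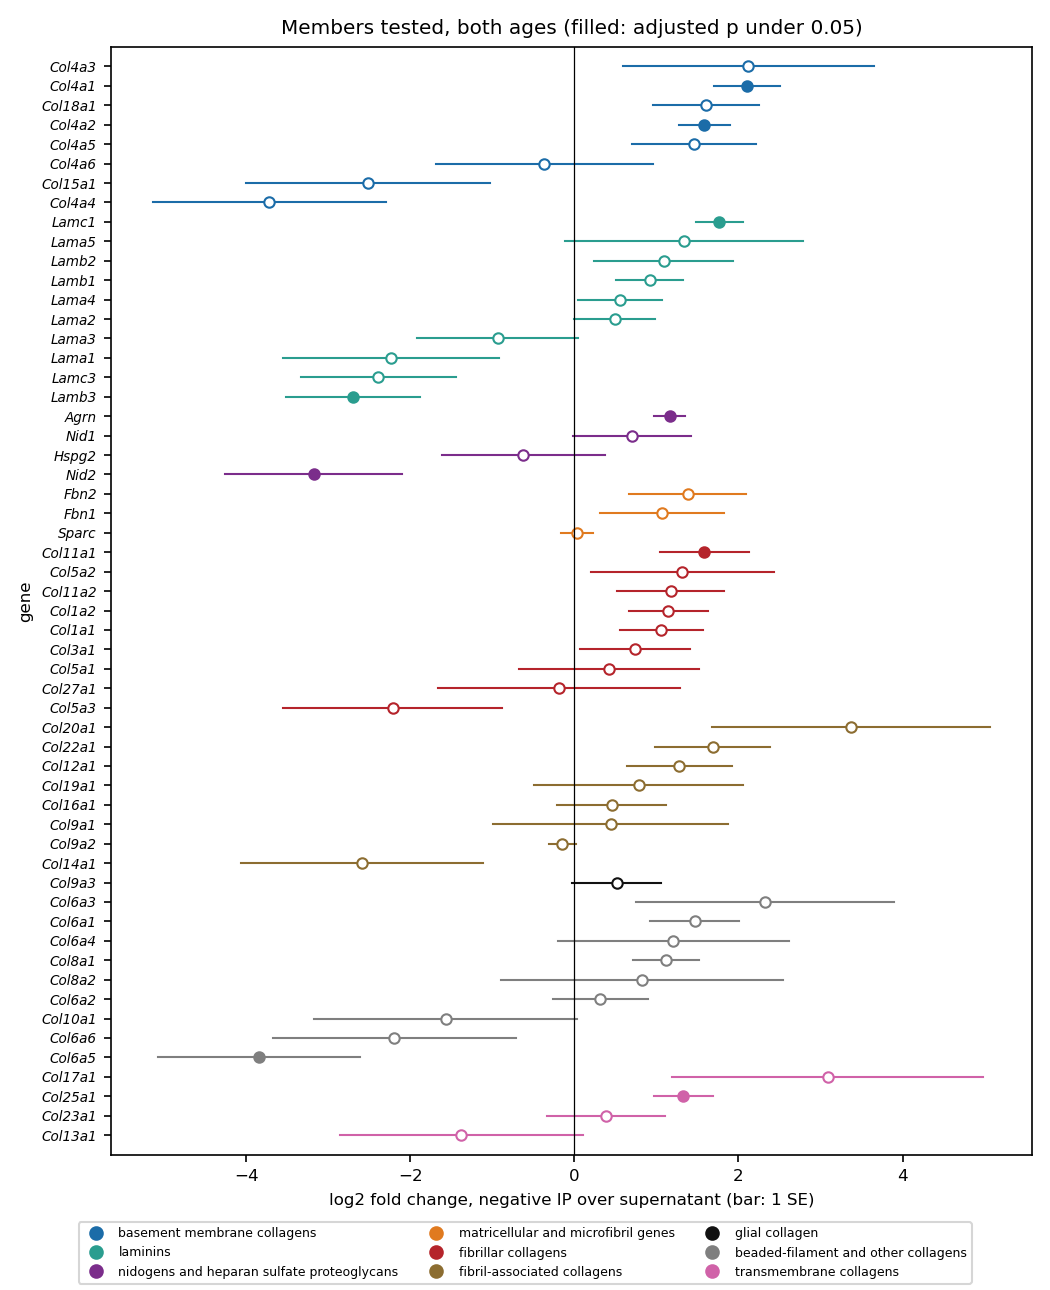
Log2 fold change of the negative IP over the supernatant for the members tested and reported here, with bars of 1 SE, grouped and coloured by role; filled points have an adjusted p under 0.05. The 6 higher and 3 lower members stand among others whose bars often span several log2 units.

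The calls differed in how firmly they held. Agrn, Lamc1, Col4a1 and Col4a2 were called in all 10 fits that left out 1 library, and also without pool young negative 3, where 4 members were higher and 1, Lamc3, was lower. The other calls were kept in 8 (Col25a1), 6 (Lamb3), 3 (Col6a5), 3 (Col11a1) and 2 (Nid2) of the 10 fits, and without the supernatant of adult negative 1 none of the 5 passed. The members were longer than most genes. With an offset for length in each library, Col4a1 (log2 1.51, adjusted p = 0.0184), Col4a2 (1.01, 0.0335) and Lamc1 (1.06, 0.0177) were still called by edgeR. Agrn was not (log2 0.48, adjusted p = 0.0853), nor were Col25a1 (0.71, 0.187) and Col11a1 (0.86, 0.303).

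Within the young pools alone, 5 members were higher and 3 lower, where 13% of all genes were called higher and 14.1% lower. The higher ones were Lamc1 (log2 1.99), Col4a2 (1.79), Col4a1 (1.63), Col8a1 (1.55) and Agrn (1.02). The lower ones had IPs at or near 0. Col5a3 had 5, 28 and 31 counts in the supernatants and 0 in all 3 IPs. Its mean supernatant CPM was 9.56-fold the mean floor of 3 counts in those IPs, a ratio of means and not a bound for each pool. Lamc3, a gamma chain found in retina and brain, fell from 13, 12 and 126 counts to 0, 0 and 2 counts, and Lama3 from 37, 60 and 35 to 0, 8 and 0 counts. Lamc1, Col4a2 and Lamc3 kept these calls in all 10 fits that left out 1 library, Agrn in 9, Col4a1 and Col8a1 in 4, Col5a3 in 2 and Lama3 in 1. Without pool young negative 3, Lamc1 (log2 2.59), Col4a2 (2.05), Col4a1 (1.87) and Lamc3 were still called by edgeR. The calls of Agrn (log2 0.83, adjusted p = 0.0593), Col8a1 (log2 1.51, adjusted p = 0.123), Col5a3 (adjusted p = 0.150) and Lama3 (adjusted p = 0.105) ended without it. With each IP paired to its supernatant, Col8a1 (adjusted p = 0.104) and Col5a3 (adjusted p = 0.124) were no longer called, and Col1a2 (log2 1.29, adjusted p = 0.0224) and Col3a1 (log2 1.27, adjusted p = 0.0123) were called higher. With the length offset, Lamc1 alone was called higher in the young pools, and Lama3 and Lamc3 lower. The calls of Col4a2, Col4a1, Agrn, Col8a1 and Col5a3 ended with it. With that offset and pairing together, Col4a2 alone was called higher.

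Within the adult pools 3 members were higher and 1 lower, where 6.39% of all genes were called higher and 4.49% lower. Col4a1 (log2 2.58), Lamc1 (1.55) and Agrn (1.30) were higher. Nid2 was lower, and its mean supernatant CPM was 14.4-fold the mean floor of 3 counts in the adult IPs. When paired, Lamc1 no longer passed (adjusted p = 0.0710 by edgeR) and Col25a1 did, and without pool young negative 3 Nid2 no longer passed (adjusted p = 0.0512). Leaving out either adult supernatant, or the IP of adult negative 2, left no member called higher in the adult pools. The length offset also left no member called higher there, and Nid2 lower. With that offset and pairing together, Col4a1 alone was called.

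Lamc3 and Lama3 read the opposite way in adults, with 275 and 312 counts of Lamc3 in the adult IPs against 100 and 84 in the supernatants, and 196 and 245 counts of Lama3 against 64 and 29. A test of whether the fraction difference itself changed with age called 0 of 57 members by edgeR, with 5 at an unadjusted p under 0.05 (1068 of all genes). By DESeq2, Lama3 and Lamc3 were called and Nid2 in the other direction; limma voom called none.

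Such scatter between IP libraries was common among the members. In 21 of 57 members, some negative IP held 3 counts or fewer while another exceeded every negative supernatant, against 14% of all genes. Lama5, an alpha chain of vessel laminins, read 0, 12.2 and 2.77 CPM in the young IPs and 0 and 3.40 CPM in the adult IPs, against 1.02 to 1.49 CPM in the 5 supernatants. Of 57 members, 28 had 3 counts or fewer in at least 1 negative IP, as did 3209 of 16361 genes. In at least 1 negative supernatant, 11 members and 937 genes did. The negative IPs held 34.4 to 49.6 M counts and the negative supernatants 29.3 to 50.5 M. At similar depth the IPs held fewer genes with any count, 15120 to 16002 against 17444 to 17720 in the supernatants. Counts of 0 in an IP were thus more common over all genes, which limits the calls that rest on them.

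The GFP-positive IP lay below all 5 negative IPs for 16 of 57 members and above all 5 for 1, Col6a5, where 16.1% of all genes lay below and 16.5% above. Of that pool's fractions, the IP held 9.85 CPM of Col4a1 and the supernatant 4.54 CPM, with Lamc1 at 15.1 and 6.07 CPM. Col4a2 (5.42 against 6.0 CPM) and Agrn (13.4 against 13.7 CPM) differed little from their own supernatant. Col11a1 read 0.0828 CPM there, and the lowest negative IP 1.96 CPM. Col8a1, a short-chain collagen of vessel walls, read 0.0621 CPM, and the lowest negative IP 3.29 CPM. With 1 GFP-positive pool no test was made.

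**Figure D4:**
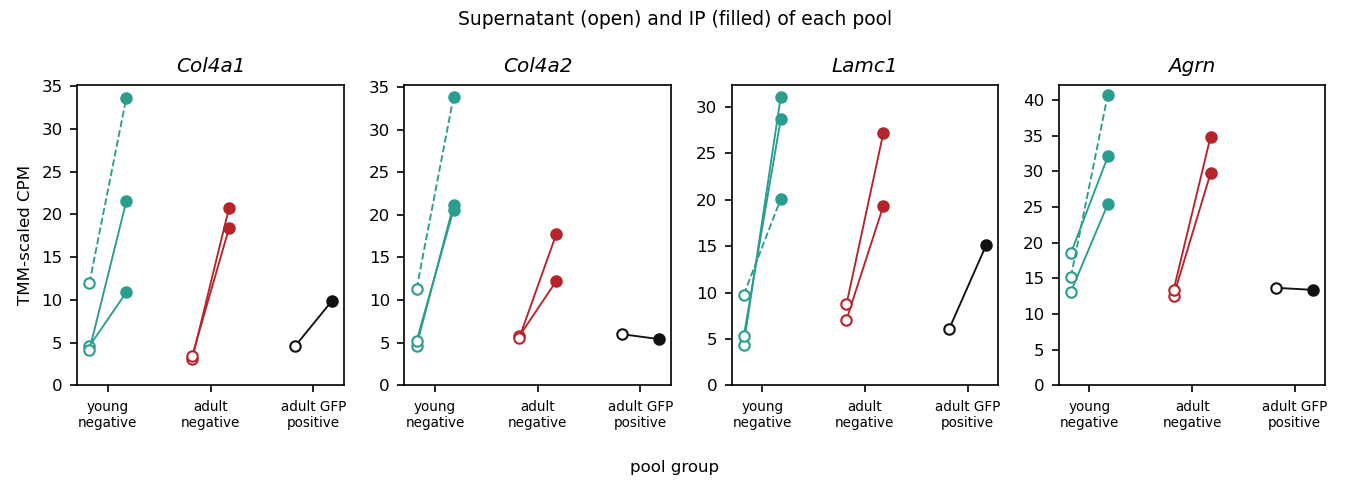
TMM-scaled CPM of Col4a1, Col4a2, Lamc1 and Agrn in the supernatant (open) and IP (filled) of each new pool, joined by a line; the broken line is young negative 3. All 5 negative pools rise in each panel, and the GFP-positive pool rises for Col4a1 and Lamc1 only.

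The next comparison asked which members differed with age in the supernatant, over 1 second-set library from each of 10 pools with pool origin as a term. Of 53 members tested, 2 were higher and 1 lower in adults, where 4.20% of all genes were called higher and 5.22% lower. Col9a3 was lower. It read 13.1, 11.8 and 15.7 CPM in the young negative pools and 10.7 and 11.3 CPM in the young prior pools. In adults it read 4.40 and 5.31 CPM in the negative pools, 3.93 CPM in the GFP-positive pool and 5.30 and 4.01 CPM in the prior pools. The lowest young library, at 10.7 CPM, lay above the highest adult one, at 5.31 CPM. The difference was 2.71-fold (log2 -1.44, SE 0.16, adjusted p = 0.000156 by edgeR), and it was called in all 10 fits that left out 1 library. Within the new pools it was log2 -1.56 (SE 0.20, adjusted p = 0.00651 by edgeR), and within the 4 prior pools -1.24 (SE 0.24, adjusted p = 0.168), which did not pass. In the first-set libraries of the prior pools, Col9a3 read 12.4 and 14.1 CPM in the young and 4.46 and 5.26 CPM in the adult.

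Of 53 members, Col9a3 alone lay lower in every adult than in every young second-set library, and Col17a1 alone lay higher. Over all genes, 3.61% lay lower and 2.63% higher. The other type IX chains, which join Col9a3 in a single trimer, had no call. Col9a2 was at log2 -0.27 (SE 0.14, adjusted p = 0.236) and Col9a1 at -1.28 (SE 0.50, adjusted p = 0.129). The ratio of Col9a2 to Col9a3 per kb, computed after these values were seen, was 1.63 to 2.42 in the 5 young and 4.00 to 5.23 in the 5 adult libraries.

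Col9a3 lies on chromosome 2 from 180597790 to 180622189 (GRCm38), on the plus strand. Its annotated exons share 234 of 3853 bases with those of Tcfl5 on the opposite strand. Whether counting used strand is not known from the labels, and without strand the reads from those bases cannot be told apart. Tcfl5 was also lower in adults, from 3.49 to 6.54 CPM in the young to 1.42 to 3.55 CPM (log2 -0.91, SE 0.26, adjusted p = 0.0462 by edgeR). Of 8 oligodendrocyte precursor markers, 3 were called lower in adults (Gpr17, Olig1 and Olig2, log2 -1.60 to -0.68) and none higher by edgeR, with Cspg5 at log2 0.19 and Pdgfra at 0.03. They summed to 717 to 866 CPM in young and 534 to 681 CPM in adult libraries. Of 10 oligodendrocyte markers, 4 were called lower (Mobp, Ugt8a, Cnp and Mbp, log2 -1.54 to -0.65) and none higher by edgeR, with Opalin at log2 0.16. These summed to 4533 to 6975 CPM in young and 2520 to 5427 CPM in adult libraries. Of 8 astrocyte markers, 1 was called higher (Slc1a3, log2 0.41, adjusted p = 0.0177 by edgeR) and 0 lower. Of 9 neuron markers, 1 was called higher (Syt1) and 3 lower (Nefm, Stmn2 and Tubb3) by edgeR. The part of these cell types in the Col9a3 difference was not tested.

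The members called higher in adults were rare. Col6a5 read 0.0610 to 0.331 CPM in the young and 0.218 to 1.46 CPM in the adult libraries (log2 2.22, SE 0.58, adjusted p = 0.0305 by edgeR). Col17a1, a transmembrane collagen of epithelial hemidesmosomes, read 0.0305 to 0.229 CPM in the young and 0.257 to 0.784 CPM in the adult libraries (log2 1.93, SE 0.56, adjusted p = 0.0447 by edgeR). Both calls ended in most fits that left out 1 library, and neither held by limma voom or with the first-set libraries of the prior pools. In those first-set libraries Col17a1 read 0.950 and 0.198 CPM in the young and 0.338 and 0.183 CPM in the adult. Col6a5 read 0.250 and 0.396 CPM in the young and 0.217 and 1.16 CPM in the adult. The ages thus overlapped there for both genes. Type IV collagen showed no age call, with Col4a1 at log2 -0.59 (SE 0.33, adjusted p = 0.299) and Col4a2 at -0.04 (SE 0.28, adjusted p = 0.953). Among the young libraries, Col4a1 read 12 CPM in young negative 3 and 4.13 to 4.58 CPM in the rest. Sparc was level with age (log2 -0.01, SE 0.11, adjusted p = 0.974).

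**Figure D5:**
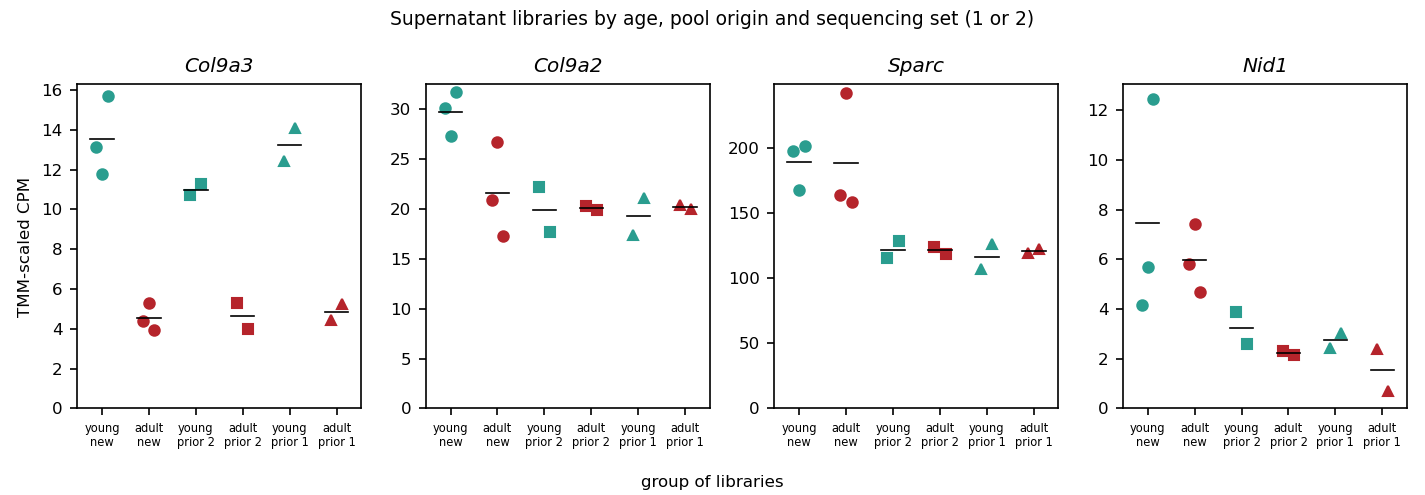
TMM-scaled CPM of Col9a3, Col9a2, Sparc and Nid1 in the 14 supernatant libraries, grouped by age, pool origin and sequencing set; short lines are group means. Col9a3 separates by age in each origin and set, whereas Sparc separates new from prior pools.

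Other members differed between new and prior pools. Every new supernatant lay above every prior second-set supernatant for 5 of 53 members, Col1a1, Hspg2, Lama4, Nid1 and Sparc, and below for 1, Lama3, where 3.32% of all genes lay above and 4.71% below. Sparc ran from 159 to 242 CPM in the 6 new supernatants, from 116 to 128 CPM in the 4 prior pools of the second set and from 107 to 126 CPM in the first. Nid1 ran from 4.18 to 12.4 CPM in the new and from 2.15 to 3.87 CPM in the prior second-set libraries. The fibroblast and meninges markers summed to 150 to 648 CPM in the new and 36.0 to 222 CPM in the prior libraries, and their part in these differences was not tested. The new GFP-positive pool is of the same cross as the prior pools, and its supernatant, at 159 CPM of Sparc and 4.69 CPM of Nid1, also lay above them. No test was made of this contrast.

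Repeat sequencing of the 4 prior pools showed how far a second library of the same RNA moved these genes. Of 55 members tested, 1 was higher and 4 lower in the second set, where 15.0% of all genes were called higher and 16.1% lower. Col4a1 was lower by log2 -0.59 (SE 0.17, adjusted p = 0.0153 by edgeR), from 5.05, 5.52, 10.8 and 4.98 CPM in the first set to 4.41, 4.54, 5.89 and 2.49 CPM in the second. All 4 pools moved down. Among the others called lower were Col4a2 (log2 -0.47, adjusted p = 0.0431 by edgeR) and Col3a1 (log2 -0.74, adjusted p = 0.0365). Col11a1 was higher (log2 0.93, SE 0.33, adjusted p = 0.0452), mainly from 1.04 to 3.76 CPM in prior adult pool 3. Col9a3 was at log2 -0.19 and was not called. Each call ended in 2 or 3 of the 4 fits that left out a pool. None of the 5 calls remained when the sets were compared without the pool as a term (4 members at an unadjusted p under 0.05), and p-values here refer to repeats of the same RNA.

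Genes that act with these proteins were followed as lists. Of 26 genes for collagen folding and crosslinking tested between negative IP and supernatant, 5 were higher and none lower by edgeR, where 15.8% of all genes were higher and 16.2% lower. The higher genes included Pxdn, which crosslinks type IV collagen (log2 1.83, SE 0.37, adjusted p = 0.00361), Plod2, a lysyl hydroxylase (log2 1.62, SE 0.42, adjusted p = 0.0136), and P4ha2, a prolyl hydroxylase (log2 1.09, SE 0.31, adjusted p = 0.0225). Of 18 matrix receptors, 5 were higher and none lower: Itga6 (log2 1.56) and Itga3 (1.23), integrin chains that bind laminin, Itgb1 (1.00), their beta partner, Dag1 (1.13), which encodes dystroglycan, and Ddr1 (0.59), a collagen receptor kinase. Of 14 proteases and inhibitors, 2 were higher, and of 26 other matrix glycoproteins, 3 were higher, among them Fn1, which encodes fibronectin (log2 1.74, SE 0.56, adjusted p = 0.0356). The list medians were 0.10, 0.49, 0.23 and 0.28, against -0.03 over all genes, and these shares of calls are not set apart from that background by any test.

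With age, 3 of 25 folding genes rose, where 4.20% of all genes were called higher and 5.22% lower, led by Pcolce2, an enhancer of procollagen processing (log2 1.84, SE 0.28, adjusted p = 0.0017 by edgeR). Of 17 receptors, Bcam, Itgb5 and Sgcb rose (log2 0.61 to 0.93). Among 14 proteases and inhibitors, Timp3, an inhibitor bound to the matrix (log2 0.87, SE 0.21, adjusted p = 0.0192), and Timp2 rose, and Adamts4, a proteoglycan-cleaving protease of the oligodendrocyte lineage, fell by 0.88 on the log2 scale (SE 0.16, adjusted p = 0.00455). Of 25 other matrix glycoproteins, Smoc1 and Sparcl1 rose and none fell by edgeR.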

How the data were processed

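The study sequenced preoptic RNA of 10 pools in 20 libraries. The authors deposited whole-number read counts per gene symbol, not normalised, in a single table. The submitters' processing notes name HTSeq 0.6.1, TopHat2 2.0.13 with Bowtie2 2.2.1, Cuffdiff 2.1.1, Cufflinks, DESeq2 1.14.1, FastQC 0.11.3 and the build mm10, without their roles; annotation and strand setting: not given in the sources used here. A SMARTer kit amplified the polyA RNA, per the labels' protocols; handling of duplicate reads was not given, so floors cover counting error only.

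Groups followed the sample titles, also where the series text or descriptions gave another number. Totals were 27.7 to 50.5 M counts. Tests used edgeR 4.0.16 in R 4.3.3 (TMM, filterByExpr with a minimum count of 10, quasi-likelihood, Benjamini-Hochberg over all genes tested, threshold 0.05); DESeq2 1.42.0 and limma 3.58.1 voom were alternatives. The IP contrasts came from 1 fit of the 10 negative libraries, so that the adult pools shared the spread of all; the fit was not paired. Deviations from the group means of same-numbered young IP and supernatant correlated at 0.273, 0.181 and 0.438, over 11758 genes. Young pairs of unlike number ran from -0.378 to 0.121. With 2 adult pools the deviations mirror each other, so the 0.180 of both same-numbered adult pairs is 1 value. Same-numbered libraries came from the same pool, so the numbers pair them. Other alternatives were RLE scaling, no filter, leaving out each library, a lowess offset on transcript length, and pool origin. Length came from GENCODE M21 for 98.4% of genes and all members.

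Members and gene lists were chosen with earlier results of these data known. Members were named in full at a mean of 10 CPM over the supernatants, or past the threshold in a comparison, with Col4a1, Col4a2, Lamc1 and Col9a3 always. Pools were taken to hold separate mice; otherwise p-values measure only the spread between samples. The values of 1 member are not reported here; it is counted among the members.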

Additional observations from a re-analysis of the deposited data

Results flagged for a closer look

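Each of 20 named members was checked in 3 groups of libraries, giving 60 checks. Of these, 11 flagged an extreme library far from the nearest other one. For normally distributed values, chance gives about 1 in 20. Pool young negative 3 gave 4 of them: Col3a1 at 29.0 CPM and Col4a1 at 12 CPM among the 5 young supernatants, where the next libraries read 8.61 and 4.58 CPM, Lamc3 at 3.84 CPM there (next 1.02 CPM), and Col3a1 at 77.4 CPM among the 5 negative IPs (next 20.5 CPM). Prior adult pool 3 gave 3, the highest of 5 adult supernatants for Agrn (24.1 CPM), Col4a2 (9.24 CPM) and Col11a1 (3.76 CPM). Col25a1 stood at 15.9 CPM in prior young pool 2, above the other young supernatants, and Col8a1 at 0.933 CPM in prior adult pool 4, below the other adult ones. Among negative IPs, Col5a3 read 5.06 CPM in adult negative 1 and Col6a5 read 0.129 CPM in adult negative 2, with 0 in the other 4 libraries of each. With 4 libraries at 0, any count in the fifth is flagged.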

How the results depend on the processing

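Of 470 results of single members under other settings, 300 kept their call, 170 lost it and 0 reversed. For the IP over both ages (6 higher, 3 lower), DESeq2 gave 11 higher, the length offset 3, the replicate block 7 higher and 2 lower, the block with the length offset 3 higher, and the fits without pool young negative 3, added after seeing the data, 1 lower. Fits that left out 1 library gave 4 to 10 higher and 0 to 5 lower; the 10 and 5 came without young negative IP 2. In young pools (5 higher, 3 lower) the length offset left 1 higher with or without the block, and 3 were higher without young negative 3; fits that left out 1 library gave 2 to 7 higher and 1 to 4 lower. In adult pools (3 higher, 1 lower), DESeq2 gave 5 and 3, the length offset 0 higher, that offset with the block 1 higher and 0 lower, and the fit without young negative 3 gave 0 lower; fits that left out 1 library gave 0 to 4 higher and 0 to 2 lower. For the age difference of the fraction ratio (0 and 0), DESeq2 gave 2 and 1; fits that left out 1 library gave 0 higher and 0 to 1 lower, the 1 being Lamb3 without adult negative IP 2.

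For age (2 higher, 1 lower), DESeq2 and the unfiltered table gave 1 higher; limma voom, no term for pool origin, new pools only, prior pools only and first-set libraries gave 0 higher, and prior pools only gave 0 lower. Fits that left out 1 library gave 0 to 2 higher and 1 to 2 lower. For the sequencing sets (1 higher, 4 lower), DESeq2 gave 0 higher, no replicate block 0 and 0, and fits that left out 1 pool 0 to 1 higher and 2 to 3 lower. The cause of these shifts was not tested. RLE scaling changed no count. Of the 61 members, 26 averaged under 1 CPM, where a floor of 3 counts was 0.0588 to 0.109 CPM.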
